A study of Arabidopsis thaliana with 22 samples.

Results

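The *Arabidopsis thaliana* genes examined here encode 10 histone acetyltransferases: *HAG1* (AT3G54610, also called *GCN5*), *HAG2* (AT5G56740), *HAG3* (AT5G50320), *HAC1* (AT1G79000), *HAC5* (AT3G12980), *HAC12* (AT1G16710), *HAM1* (AT5G64610), *HAM2* (AT5G09740), *HAF1* (AT1G32750) and *HAF2* (AT3G19040). They were listed by locus and no measured value entered the rule, although earlier results of these data were known. They are 10 of 27444 protein-coding genes on chromosomes 1 to 5. Every peak that overlapped a gene span, or the 2 kb on either side of it, was taken from each of 10 peak lists, and the peaks whose summit, the base of highest enrichment, lay inside the gene were counted apart. The lists come from whole 3-day-old seedlings grown in the dark, either Col-0 (wild type) or *ein2-5*, a mutant in EIN2, which relays the ethylene signal. Seedlings of both genotypes received hydrocarbon-free air or the same air with 10 p.p.m. ethylene for 4 h. Chromatin was immunoprecipitated with antibodies against histone H3 acetylated at lysine 14 (H3K14Ac) or lysine 23 (H3K23Ac) and, in Col-0 only, lysine 9 (H3K9Ac). The study sequenced 18 ChIP libraries and 4 IgG libraries (1 for each genotype and treatment), pooled replicate libraries before peak calling, and used 1 library in each Col-0 H3K14Ac list. Whole seedlings mix all cell types, so a weak mark in all cells and a strong mark in a few cannot be told apart.

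Histone acetyltransferases move an acetyl group onto lysines of the histone tails, which loosens chromatin and gives docking sites for bromodomain proteins. H3K9Ac, H3K14Ac and H3K23Ac typically sit just downstream of the start of transcribed genes. Plants have a GNAT family (HAG proteins), a family related to animal CBP and p300 (HAC proteins), a MYST family (HAM proteins) and a family related to the TFIID subunit TAF1 (HAF proteins). The question here is where the genes for these enzymes carry the marks, and how the calls differ between treatments and genotypes.

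Each list gives, for every peak, the pileup (the ChIP coverage at the summit, scaled to the control), the fold enrichment over the local IgG background and the −log10 *P*. The 10 lists rest on 16981322 to 37674460 ChIP tags and hold 3011 to 18003 peaks. Their controls differ more: 2438541 tags for Col-0 air, 10479732 for Col-0 ethylene, 13683768 for *ein2-5* air and 4333059 for *ein2-5* ethylene. At the same fold enrichment, a peak is less likely to pass with a shallower control. The match of the Col-0 air lists to the Col-0 air IgG library is in doubt, and their values use the control tags that the lists state. Lists of the same genotype and treatment share a control. With 1 pooled list per condition there is no replicate error, and no test was run; differences between lists are given as values. Because the ChIP signal was scaled to the smaller control library, the pileup divided by the control tags gives the number of fragments covering the summit per 1000000 ChIP tags, called coverage below. The IgG background at a summit is given per 1000000 control tags. The coverage, multiplied by the ChIP tags, gave a whole number of fragments, within 0.15, at all 105488 peaks. Coverage is relative to all tags of a library, so a change shared by the whole genome would not show in it. Only 1 tag was kept per position and strand and each was extended to 200 bp, so at most 400 fragments can cover a base, and the deeper a library, the closer its summits come to that ceiling.

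The sequences under the summits are shown for the 4 genes whose summits lay in a coding exon in 8 or more lists (16.4% of all genes had a summit inside in that many). They are read from the RefSeq TAIR10.1 assembly on the strand of the gene, 5′ to 3′. Capitals mark the stretch from the first to the last summit over all lists that called the gene, and 40 bases on either side are in lower case. The *HAG1* window is at chr3:20213675-20213852 (plus strand), the *HAG3* window at chr5:20484550-20484683, the *HAM1* window at chr5:25830280-25830422 and the *HAM2* window at chr5:3024512-3024614 (all 3 on the minus strand).
HAG1: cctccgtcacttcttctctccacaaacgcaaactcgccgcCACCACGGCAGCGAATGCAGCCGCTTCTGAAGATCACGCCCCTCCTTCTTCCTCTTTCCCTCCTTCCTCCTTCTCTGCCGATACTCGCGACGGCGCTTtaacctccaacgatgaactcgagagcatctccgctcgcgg
HAG3: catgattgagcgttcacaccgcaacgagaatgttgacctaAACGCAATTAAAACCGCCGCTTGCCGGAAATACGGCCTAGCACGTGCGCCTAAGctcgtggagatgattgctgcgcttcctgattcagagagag
HAM1: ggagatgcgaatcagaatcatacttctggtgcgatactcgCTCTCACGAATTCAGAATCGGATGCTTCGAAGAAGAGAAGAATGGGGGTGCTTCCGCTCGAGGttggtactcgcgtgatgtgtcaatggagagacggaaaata
HAM2: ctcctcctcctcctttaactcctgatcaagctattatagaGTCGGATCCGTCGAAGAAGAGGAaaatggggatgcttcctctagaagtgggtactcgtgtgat
The summits of 10 lists fell within 98 bp in *HAG1* and 54 bp in *HAG3*, those of 9 lists within 63 bp in *HAM1*, and those of 8 lists within 23 bp in *HAM2*. *HAM1* and *HAM2* are paralogues, and with the windows laid side by side without gaps, 71 of 103 bases (68.9%) were identical, with a longest shared run of 11 bases. In that alignment all 23 bases of the *HAM2* summit stretch fell inside the *HAM1* stretch, so the summits of both genes sat at the corresponding place of the coding sequence. No 51-base stretch, the length of the reads, of any of the 10 genes occurred more than once on chromosomes 1 to 5, so reads of paralogues could be told apart.

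In total 122 peaks lay within 2 kb of the 10 genes, 64 with their summit inside the gene and 58 with it outside. All 58 outside summits lay in another annotated gene. The list with the most acetyltransferase genes by summit was Col-0 H3K23Ac with ethylene (9 of 10), and that with the fewest was Col-0 H3K14Ac in air (3 of 10). Beside each count stands the share of all 27444 protein-coding genes with a summit inside, which is the background. In Col-0 H3K9Ac 7 genes had a summit inside in air (background 36.2%) and 7 with ethylene (56.1%). In Col-0 H3K14Ac the counts were 3 in air (10.6%) and 8 with ethylene (43.8%), and in Col-0 H3K23Ac 6 in air (17.0%) and 9 with ethylene (39.3%). In *ein2-5* H3K14Ac they were 5 in air (29.6%) and 4 with ethylene (27%), and in *ein2-5* H3K23Ac 6 in air (37.2%) and 7 with ethylene (35.4%). The count stood above the background share in all 10 lists. Over the 100 pairs of gene and list, 62 had a summit inside, against 33.2% over all genes.

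**Figure D1:**
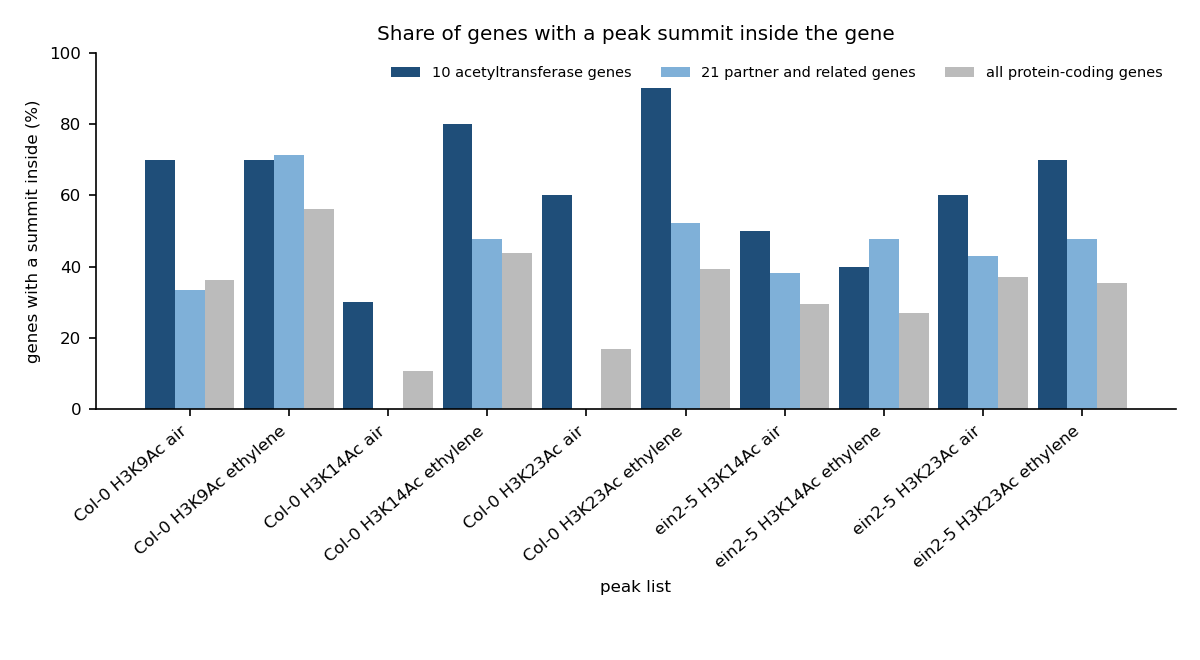
Share of genes with a summit inside the gene (%, y axis) in each of the 10 peak lists (x axis), for the 10 acetyltransferase genes, 21 partner and related genes and all 27444 protein-coding genes. The acetyltransferase bars run from 30.0 to 90.0% and lie above the grey bars in every list, and the partner genes have no bar in Col-0 air H3K14Ac and H3K23Ac.

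The 10 genes are longer than most, from 2510 bp (*HAM1*) to 10519 bp (*HAF1*), which places them between the 63.1st and 99.6th percentile of gene length, and a longer gene has more room for a summit. With a window of the same length at every gene, 1 kb on either side of the annotated start, the counts were 8 and 8 (Col-0 H3K9Ac, air and ethylene, backgrounds 38.8% and 58.3%), 3 and 8 (Col-0 H3K14Ac, 11.5% and 43.5%), 6 and 8 (Col-0 H3K23Ac, 17.7% and 41.3%), 5 and 4 (*ein2-5* H3K14Ac, 30.2% and 29.1%), and 6 and 7 (*ein2-5* H3K23Ac, 39.4% and 38.1%). By the wider rule of any peak within 2 kb they were 9 and 9 (57.9% and 77.3%), 5 and 10 (20.9% and 67.3%), 7 and 10 (31.5% and 62.5%), 7 and 6 (51.2% and 46.8%), and 8 and 9 (60.9% and 57.8%) in the same order.

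The summits that lay inside the genes were mostly close to the start. Of 64 such summits, 57 were within 500 bp of the annotated start. In the transcript with the longest coding sequence, 42 lay in a coding exon, 18 in the 5′ UTR, 1 in an intron and 3, all in *HAC12*, upstream of that transcript's first base but inside the gene. The median distance of the strongest summit from the gene start was 302.0 to 342.0 bp over the 10 lists for the acetyltransferase genes, and 340.0 to 423.0 bp for all genes with a summit inside. The gene structure differed between families: the first coding base was 52 to 187 bp from the start in the HAG and HAM genes, and 520 to 898 bp from it in the 3 HAC genes. Every inside summit of the HAG and HAM genes was in a coding exon, other than the intron summit of *HAG2* at 243 bp.

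**Figure D2:**
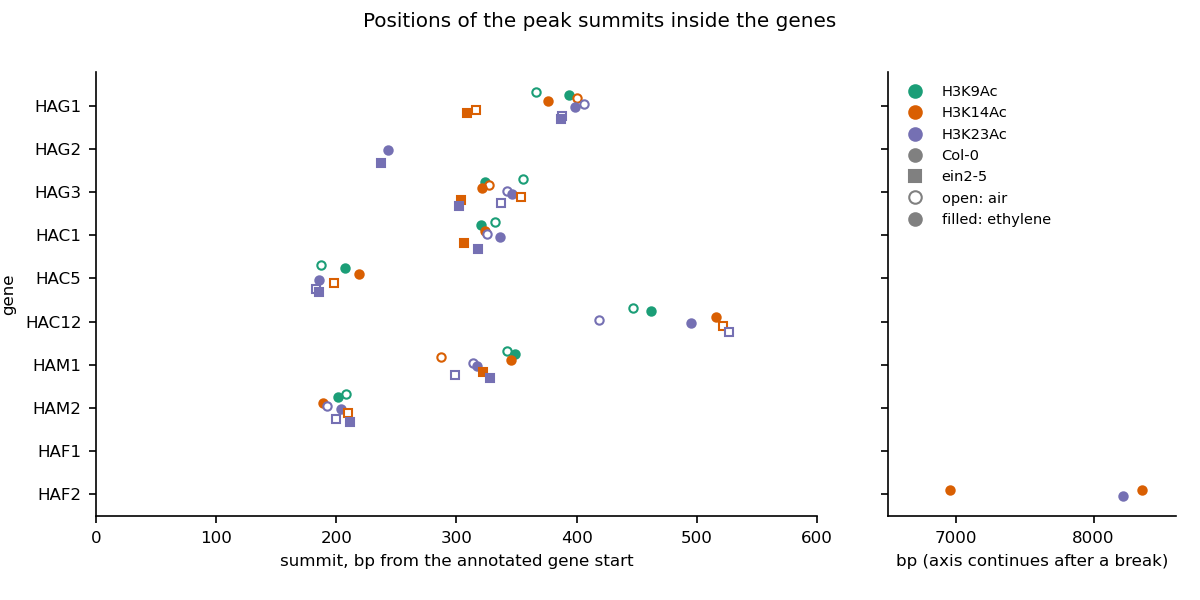
Distance of every inside summit from the annotated gene start (bp, x axis, broken between 600 and 6500 bp) for the 10 genes (y axis), with colours for marks, circles for Col-0, squares for *ein2-5*, open symbols for air and filled ones for ethylene. Summits of a gene cluster within 7 to 109 bp apart from *HAF2*, whose 3 summits lie 6954 to 8350 bp downstream, and a second *HAC5* peak at 1841 bp, which falls in the break and is not drawn.

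*HAG1*, the catalytic subunit of the SAGA complex and the homologue of yeast GCN5, and *HAG3*, the homologue of the Elongator subunit ELP3, were the only members with a summit inside in all 10 lists, which 6.24% of all genes had. The *HAG1* summits lay 309 to 406 bp from the start, all in the coding exon. In Col-0 its H3K9Ac fold enrichment was 2.92 in air and 3.28 with ethylene, its H3K14Ac values were 3.15 and 2.83, and its H3K23Ac values 3.17 and 2.77. In *ein2-5* H3K14Ac stood at 2.26 in air and 2.37 with ethylene, and H3K23Ac at 2.32 and 2.66. By −log10 *P* the *HAG1* peak stood between the 74.7th and 98.1st percentile of its own list, so it ranked in the upper part of every list. The lists differ in length, so percentiles of different lists do not order the marks: with ethylene in Col-0 the *HAG1* H3K9Ac peak had the lowest percentile of the 3 marks (85.5th) and the highest coverage, 9.28 against 8.02 for H3K14Ac and 7.30 for H3K23Ac.

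*HAG3* had lower values than *HAG1*, with a fold enrichment of 1.95 to 2.85 and a median of 2.38 over the 10 lists. Its H3K9Ac peaks ranked at the 29.0th percentile in air (fold enrichment 2.35) and the 45.2nd with ethylene (2.42), and its H3K14Ac peaks in Col-0 at the 83.5th (2.85) and 88.6th (2.40). For H3K23Ac it stood at the 74.9th percentile in Col-0 air (2.73), the 61.0th in Col-0 ethylene (1.95), the 87.3rd in *ein2-5* air (2.28) and the 56.5th in *ein2-5* ethylene (2.22). The summits lay 302 to 355 bp from the start.

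*HAG2*, the relative of the cytoplasmic enzyme HAT1 that acetylates new histone H4 in yeast, stood apart from the other GNAT genes. It had a summit inside in 2 lists, H3K23Ac with ethylene in Col-0 (fold enrichment 1.91, 32.3rd percentile) and in *ein2-5* (1.95, 15.1st percentile). Both were near the exon 1 to intron boundary, 237 and 243 bp from the start. Peaks with summits outside *HAG2* lay in AT5G56747, a pseudogene upstream of it, in 4 lists and in AT5G56730, an insulinase family gene downstream, in 2 lists.

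**Figure D3:**
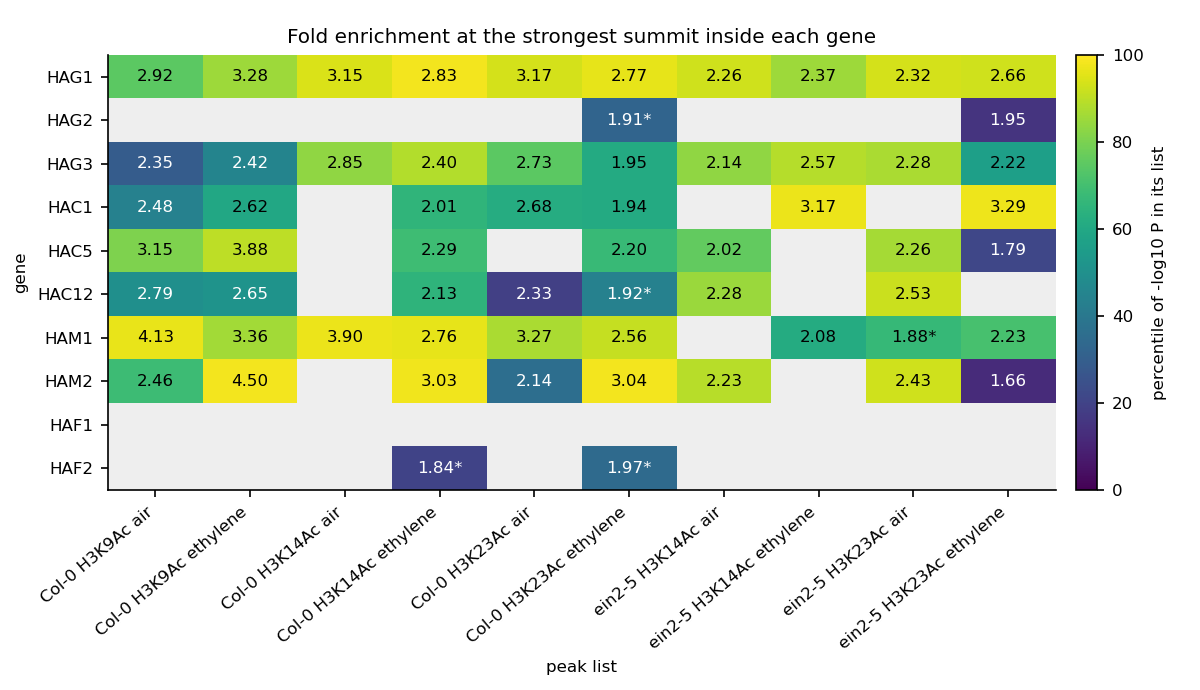
Fold enrichment (numbers) at the strongest summit inside each gene (y axis) in each list (x axis), coloured by the percentile of its −log10 *P* within that list. Grey cells had no summit inside, and a star marks a peak that did not stay under the *P* threshold at the control depth of Col-0 air. *HAG1* is filled in every list, and *HAF1* in none.

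The HAC genes encode large relatives of CBP and p300. *HAC1* is known for its effect on flowering time. *HAC1*, *HAC5* and *HAC12* each had a summit inside in 7 lists, but not the same 7, and 23.6% of all genes had one in 7 or more. With every list shortened to its 3011 strongest peaks, the numbers were 3 (*HAC1*), 4 (*HAC5*) and 2 (*HAC12*). In Col-0 all 3 were called for H3K9Ac in both treatments, and for H3K14Ac and H3K23Ac with ethylene. In Col-0 air, none was called for H3K14Ac, and *HAC1* and *HAC12*, but not *HAC5*, were called for H3K23Ac.

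In *ein2-5* the calls of *HAC1* and *HAC12* differed between treatments for both marks, and those of *HAC5* for H3K14Ac only. *HAC1* was called with ethylene only, at a fold enrichment of 3.17 for H3K14Ac (96.9th percentile) and 3.29 for H3K23Ac (97.3rd). These were above its Col-0 values over all 3 marks, 1.94 to 2.68. Its coverage did not stand out in the same way, at 7.08 and 7.20 against 6.02 to 7.96 in Col-0. Its background was 2.08 and 2.03, against 2.46 to 3.05 in Col-0. *HAC12* was called in *ein2-5* air only, at 2.28 for H3K14Ac (84.9th percentile) and 2.53 for H3K23Ac (91.8th). *HAC5* was called for H3K14Ac in *ein2-5* air (2.02) and for H3K23Ac in air (2.26) and with ethylene (1.79). Its strongest value was H3K9Ac in Col-0 with ethylene (3.88, 90.0th percentile, against 3.15 in air).

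The HAC summits lay in the 5′ UTR or at the start of the gene, apart from a second *HAC5* peak in Col-0 H3K14Ac with ethylene (fold enrichment 1.64), whose summit was in a coding exon 1841 bp from the start. Those of *HAC1* spanned 31 bp, 306 to 336 bp from the start, and the strongest *HAC5* summit of each list lay 183 to 219 bp from the start, a span of 37 bp. Those of *HAC12* spanned 109 bp. In Col-0 they lay at 419 bp (H3K23Ac air), 447 and 462 bp (H3K9Ac air and ethylene), 495 bp (H3K23Ac ethylene) and 516 bp (H3K14Ac ethylene), and in *ein2-5* air at 522 and 527 bp (H3K14Ac and H3K23Ac). The windows of *HAC1* and *HAC12* share a run of 15 bases. The sequence CACGTG, the G-box core bound by bHLH and bZIP factors and its own reverse complement, was searched for after the windows had been read. It occurred in the first 500 bases of *HAG3* (342 bp from the start), *HAC1* (322 bp) and *HAC12* (406 bp), that is 3 of the 10 genes, against 6.72% of 26207 genes of at least 500 bp. Since the search followed the reading of these windows, the comparison is no test of enrichment. In *HAG3* the motif lies within the capitals printed above (GCACGTGC).

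*HAM1* and *HAM2* encode the MYST enzymes, which acetylate lysine 5 of histone H4 and act redundantly in gamete formation. Both genes together had a summit inside in 17 of 20 pairs of gene and list. *HAM1* was called in 9 lists, all but *ein2-5* H3K14Ac in air. In Col-0 its H3K9Ac fold enrichment was 4.13 in air and 3.36 with ethylene, its H3K14Ac values were 3.90 and 2.76, and its H3K23Ac values 3.27 and 2.56, so every Col-0 value was lower with ethylene. In *ein2-5* the H3K14Ac value with ethylene was 2.08, and H3K23Ac stood at 1.88 in air and 2.23 with ethylene. *HAM2* was called in 8 lists, and its fold enrichment in Col-0 was higher with ethylene, 4.50 against 2.46 in air at the H3K9Ac summit and 3.04 against 2.14 at the H3K23Ac summit. For H3K14Ac *HAM2* had no peak in Col-0 air and a fold enrichment of 3.03 with ethylene (97.8th percentile). In *ein2-5* it was 2.23 for H3K14Ac in air, 2.43 for H3K23Ac in air and 1.66 for H3K23Ac with ethylene, with no H3K14Ac peak with ethylene.

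At *HAM2* the IgG background differed between treatments in both genotypes, and the ChIP coverage in Col-0 differed less than the background did. For H3K9Ac in Col-0 the coverage was 10.7 in air and 10.3 under ethylene (306 and 295 fragments, ratio 0.963, 95% counting interval 0.818 to 1.13). The background at the same summit was 4.10 in air but 2.21 with ethylene, and this ratio of 0.540 stood at the 2.84th percentile of the genes called in both lists. Before scaling to 1000000 control tags, these local backgrounds were 10.0 and 23.2, and no counting interval was computed for them. For H3K23Ac the coverage was 8.38 in air and 7.17 with ethylene (270 fragments each), and the background 3.69 and 2.29. In *ein2-5* the order turned: the H3K23Ac coverage was 5.83 in air and 8.21 with ethylene (ratio 1.41, counting interval 1.17 to 1.70), and the background 2.35 and 4.85, a ratio of 2.06 at the 98.8th percentile. *HAM2* was thus missing from an H3K14Ac list in the 2 conditions, Col-0 air and *ein2-5* ethylene, in which its background was the higher. With the Col-0 air background, a coverage of 6.97 to 7.38 was needed for a peak, depending on the list the background is taken from, and the H3K14Ac coverage with ethylene was 7.13. With the *ein2-5* ethylene background, 7.39 was needed, and the H3K14Ac coverage in *ein2-5* air was 5.34.

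**Figure D4:**
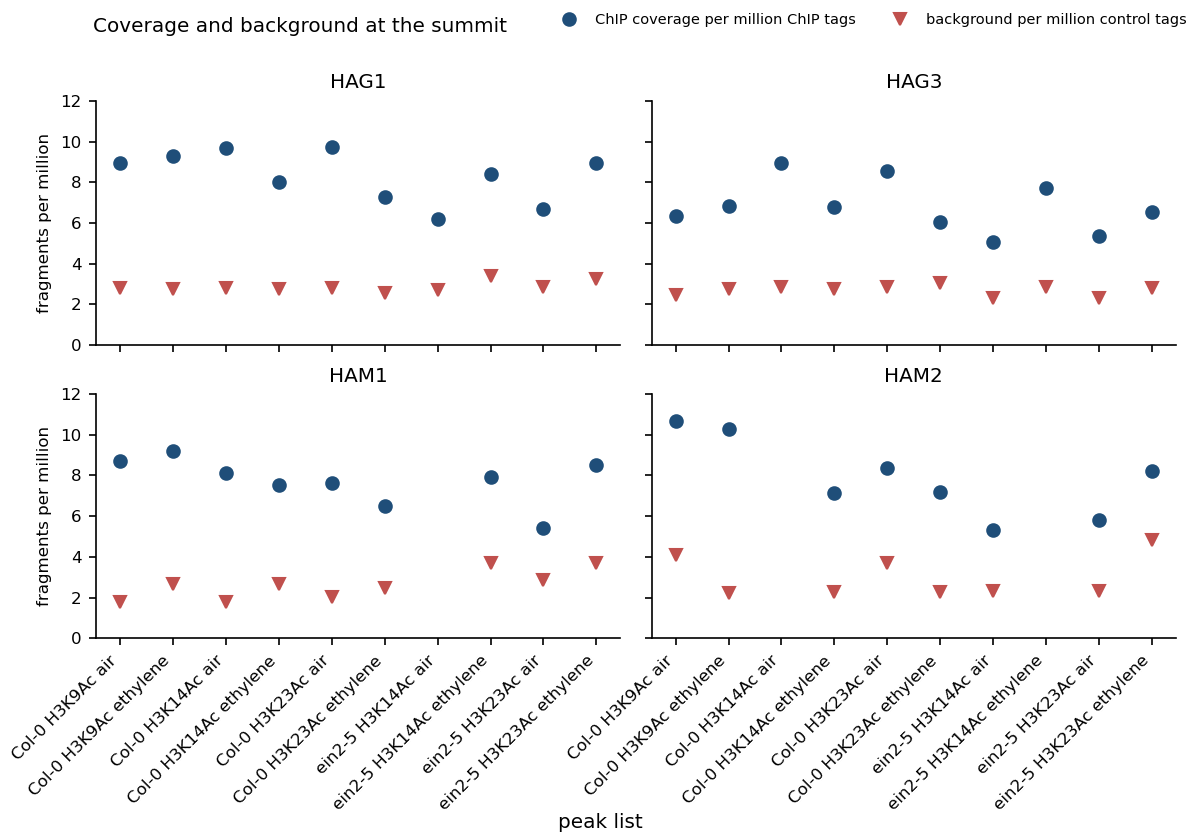
ChIP coverage at the summit (circles, fragments per 1000000 ChIP tags) and local IgG background for that summit (triangles, per 1000000 control tags) for *HAG1*, *HAG3*, *HAM1* and *HAM2* in each list (x axis), where a summit lay inside the gene. The background of *HAM2* ranges from 2.21 to 4.85, and that of *HAG1* from 2.58 to 3.42.

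*HAM1* had the opposite background in Col-0, 1.80 in air and 2.67 with ethylene at the H3K9Ac summit, with a coverage of 8.73 and 9.21. Its H3K14Ac coverage was 8.13 in air and 7.53 with ethylene, and its H3K23Ac coverage 7.64 and 6.50. Fold enrichments of *HAM1* and *HAM2* in Col-0 therefore went in opposite directions between treatments, while their coverage ratios were 0.852 and 0.855 for H3K23Ac, and 1.06 and 0.963 for H3K9Ac. The part that sampling of the single IgG library has in these backgrounds was not tested.

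*HAF1* and *HAF2* encode TAF1 homologues, and HAF2 is known as a requirement for full expression of light-regulated genes. They accounted for 2 of 20 pairs of gene and list with a summit inside. *HAF2* had 3 peaks, all in Col-0 with ethylene and all in coding exons in the last part of the gene: H3K14Ac summits at 6954 bp (fold enrichment 1.62) and 8350 bp (1.84) and an H3K23Ac summit at 8216 bp (1.97). None lay within 1 kb of its start, and their percentiles were 2.51 to 34.7. At the control depth of Col-0 air none of the 3 stayed under the *P* threshold.

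*HAF1* had no summit inside in any list, which 35.9% of all genes shared, yet a peak lay within 2 kb of it in all 10. That combination was found in 2.30% of all genes. Its 19 peaks had summits in the neighbours: AT1G32740, an S-ribonuclease binding protein gene past the 3′ end, in 10 lists (fold enrichment 1.91 to 3.65), and AT1G32760, a glutaredoxin family gene upstream, in 9 lists (1.60 to 3.06). By the rule of a peak within 2 kb alone, *HAF1* would be counted with *HAG1*, *HAG3*, *HAC12* and *HAM1*, the other members that had such a peak in all 10 lists, as 14.6% of all genes had. *HAC12* had the same kind of neighbour, *HCF173* with its antisense lncRNA AT1G05253, which held a summit in 10 lists (1.53 to 2.87) and lay 9586 to 9657 bp from the *HAC12* start. *HAM1* had summits in the gene upstream, *C/VIF2*, an inhibitor of fructosidases, in 6 lists (2.05 to 2.87). Next to *HAC5*, *RRP45a*, an exosome subunit gene, held a summit in 7 lists (1.50 to 3.05) and AT3G12977, a NAC domain gene, in 2 (2.20 to 2.39). Next to *HAC1*, AT1G79010 held a summit in 5 lists (1.74 to 2.30) and AT1G78995 in 1 (1.55). *BZIP25* beside *HAG1* (2.22) and *HEC3* beside *HAM2* (1.69) held 1 summit each.

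The comparison of ethylene with air asks which of these genes gained or lost a call within a genotype. In Col-0 H3K9Ac no member was called with ethylene only (background 20.1%) or in air only (0.142%). In Col-0 H3K14Ac *HAC1*, *HAC5*, *HAC12*, *HAM2* and *HAF2* (5 of 10) had a summit inside with ethylene only (background 33.7%) and none in air only (0.455%). In Col-0 H3K23Ac *HAG2*, *HAC5* and *HAF2* (3 of 10) were called with ethylene only (23.8%) and none in air only (1.59%). In *ein2-5* H3K14Ac *HAC1* and *HAM1* were called with ethylene only (8.03%), and *HAC5*, *HAC12* and *HAM2* in air only (10.6%). In *ein2-5* H3K23Ac *HAG2* and *HAC1* were called with ethylene only (7.89%) and *HAC12* in air only (9.69%). Where a member was called in both treatments, its peaks overlapped, with summits 1 to 76 bp apart. At the control depth of Col-0 air, 7 members were left in Col-0 H3K14Ac with ethylene (*HAF2* lost, background 24.0%) and 6 in Col-0 H3K23Ac with ethylene (*HAG2*, *HAC12* and *HAF2* lost, 20.3%), so for H3K23Ac the count equalled that in air.

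Called in both treatments were 7 members in Col-0 H3K9Ac (background 36.0%), 3 in Col-0 H3K14Ac (10.1%), 6 in Col-0 H3K23Ac (15.4%), 2 in *ein2-5* H3K14Ac (19%) and 5 in *ein2-5* H3K23Ac (27.5%), and their coverage can be set side by side. In Col-0 it was lower with ethylene for H3K14Ac and H3K23Ac at every such member, although more members were called with ethylene. Only genes called in both lists enter these ratios and their medians, and a shallower control asks for a higher coverage. Genes with a high coverage in Col-0 air are therefore more likely to enter. What this filter adds to the ratios was not tested. The H3K14Ac ratio of ethylene to air was 0.830 at *HAG1* (95% counting interval 0.668 to 1.03), 0.757 at *HAG3* (0.601 to 0.954) and 0.927 at *HAM1* (0.736 to 1.17). The median over all 2785 genes called in both was 0.867. Corrected for the ceiling of 400 fragments, these values became 0.859, 0.758, 0.984 and 0.897. The H3K23Ac ratio ran from 0.709 (*HAG3*, 95% counting interval 0.592 to 0.848) to 0.896 (*HAC12*, 0.720 to 1.12) over 6 members, with a median of 0.839 against 0.785 over 4239 genes. The interval included 1 at *HAC12*, *HAM1* and *HAM2*, and lay below it at *HAG1*, *HAG3* and *HAC1*. Corrected for the ceiling, the H3K23Ac ratio ran from 0.620 (*HAG3*) to 0.911 (*HAC12*), with a median of 0.829 against 0.740 over all genes called in both. For H3K9Ac the uncorrected ratio ran from 0.963 (*HAM2*) to 1.08 (*HAG3*) over 7 members, with a median of 1.04 against 1.03 over 9893 genes.

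In *ein2-5* the coverage was higher with ethylene at every member called in both treatments. There the ethylene lists had the shallower control, so the same filter favours genes with a high coverage with ethylene. The H3K14Ac ratio was 1.36 at *HAG1* (counting interval 1.12 to 1.64) and 1.52 at *HAG3* (1.24 to 1.87), against a median of 1.39 over 5215 genes. The H3K23Ac ratio ran from 1.22 (*HAG3*, counting interval 0.994 to 1.49) to 1.57 (*HAM1*, 1.30 to 1.90) over 5 members, with a median of 1.34 against 1.42 over 7550 genes. Before any correction for the ceiling, these values lay on either side of the median for both marks. The counting intervals, exact (Clopper-Pearson) and conditional on both fragment numbers, cover counting error only and not the spread between libraries. Corrected for the ceiling of 400 fragments, the *ein2-5* H3K14Ac ratios became 1.99 at *HAG1* and 2.14 at *HAG3*, and the median over the 5215 genes became 1.81, so with the correction both members lay above it. The corrected *ein2-5* H3K23Ac ratios ran from 1.24 (*HAG3*) to 1.86 (*HAM1*), with a median of 1.47 against 1.54 over the 7550 genes.

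**Figure D5:**
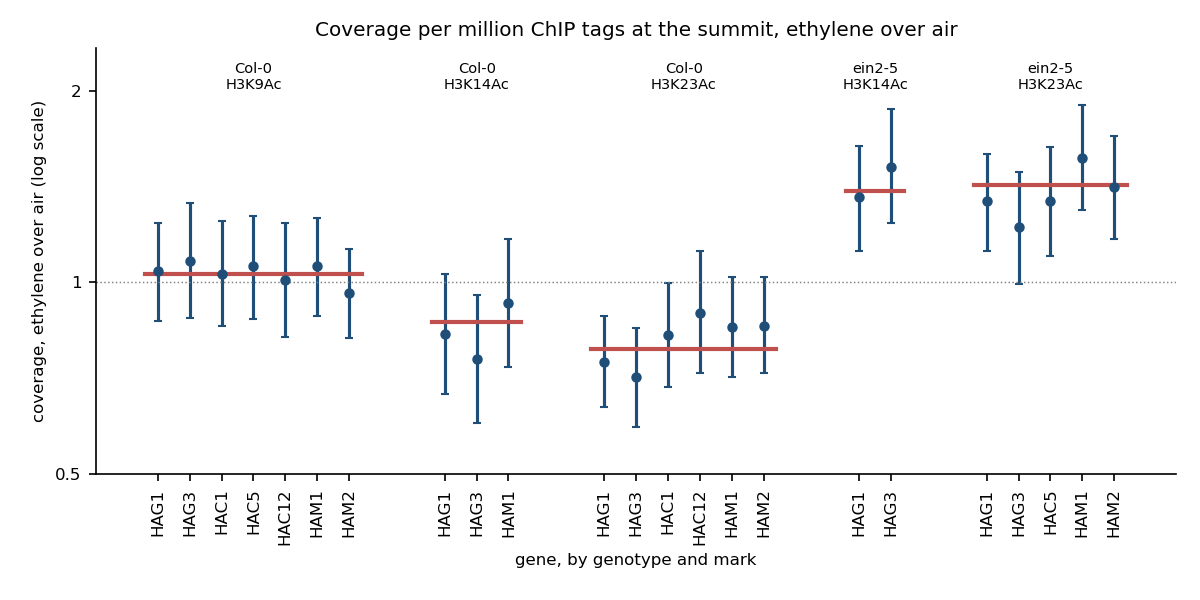
Ratio of ethylene to air (log scale, y axis) of the coverage per 1000000 ChIP tags at the summit, for each member called in both treatments (x axis), by genotype and mark. Bars are 95% counting intervals and red lines the median over all genes called in both lists, from 0.785 for Col-0 H3K23Ac to 1.42 for *ein2-5* H3K23Ac.

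For members without a peak in a list, the coverage there is not known, but the control sets the coverage that meets the *P* threshold. The values below apply that threshold at the summit base only. Whether a stretch as long as a peak would have met it was not tested. With the background at the *HAC1* summit in the other Col-0 air lists, H3K14Ac met the threshold from a coverage of 4.92 to 5.74, depending on the list. Its H3K14Ac coverage with ethylene was 6.16. At *HAC5* the threshold in Col-0 air was a coverage of 4.51 for H3K14Ac and H3K23Ac, and the values with ethylene were 4.83 and 5.15. At *HAC12* it was 4.51 for H3K14Ac, and the value with ethylene 5.18. The ethylene coverage of these HAC genes therefore lay above the summit threshold in air, at *HAC5* by as little as 4.83 against 4.51. This does not show that peaks would have been called there. At *HAM1* in *ein2-5* air the threshold for H3K14Ac was 3.95, and its value with ethylene was 7.92. At *HAC5* in *ein2-5* with ethylene 6.23 was needed for H3K14Ac, and its value in air was 5.10.

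Among members called in both genotypes, the coverage in air was lower in *ein2-5*, apart from *HAC12* for H3K23Ac. The shallower control was that of Col-0 in air and that of *ein2-5* with ethylene. The filter on calls therefore applies here too, and its part in these ratios was not tested. For H3K14Ac the ratio of *ein2-5* to Col-0 in air was 0.641 at *HAG1* and 0.565 at *HAG3*, against a median of 0.683 over 2433 genes called in both. Corrected for the ceiling, these values became 0.655, 0.556 and 0.704. For H3K23Ac it was 0.627 to 0.708 at *HAG1*, *HAG3*, *HAM1* and *HAM2*, and 1.01 at *HAC12* (counting interval 0.817 to 1.26), which stood at the 98.5th percentile of 4046 genes, whose median was 0.666. With the correction it was 0.506 to 0.626 at *HAG1*, *HAG3*, *HAM1* and *HAM2*, 1.06 at *HAC12* and 0.561 in the median. With ethylene the ratios were above 1 at all members called in both genotypes: 1.05 to 1.15 over 4 members for H3K14Ac (median of 6532 genes 1.12), and 1.08 to 1.40 over 7 members for H3K23Ac (median of 7749 genes 1.25). The counting interval included 1 at all 4 members for H3K14Ac, and at *HAG2*, *HAG3*, *HAC1* and *HAM2* for H3K23Ac. Corrected for the ceiling, the H3K14Ac ratios became 1.45 to 1.57 (median of all genes 1.44). The H3K23Ac ratios became 1.01 to 1.49 (median of all genes 1.27). The *HAC1* fold enrichment for H3K23Ac with ethylene was 1.94 in Col-0 and 3.29 in *ein2-5*, with a coverage of 6.02 and 7.20 and a background of 3.05 and 2.03. The background ratio of *HAC1*, 0.665, stood at the 1.92nd percentile of those genes.

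The partners of these enzymes were examined as 21 genes: *HAC2* and *HAC4* of the CBP family, 4 genes of the GCN5 module, 2 genes of the FAT domain kinase-like scaffold, 5 other Elongator genes and 8 genes of NuA4, the complex that holds MYST enzymes. They had a summit inside in 80 of 210 pairs of gene and list, where the share over all genes was 33.2%. No partner was called in all 10 lists (6.24% of all genes were), and 5 were called in none (35.9% of all genes were): *HAC2*, *HAC4*, the neighbouring Helicase/SANT-associated genes AT3G24870 and AT3G24880, and AT2G18000 (*TAF14*). For Col-0 H3K9Ac 7 of 21 partners had a summit inside in air (background 36.2%) and 15 with ethylene (56.1%), for Col-0 H3K14Ac 0 (10.6%) and 10 (43.8%), and for Col-0 H3K23Ac 0 (17.0%) and 11 (39.3%). In *ein2-5* H3K14Ac the counts were 8 in air (29.6%) and 10 with ethylene (27%), and in *ein2-5* H3K23Ac 9 (37.2%) and 10 (35.4%). In Col-0 air 3 of 10 members and 0 of 21 partners were called for H3K14Ac, and 6 of 10 members and 0 of 21 partners for H3K23Ac. At q under 0.05 these 6 members became 4, without *HAC12* and *HAM2* (background 10.5%). The partners had the higher share in *ein2-5* H3K14Ac with ethylene (10 of 21 against 4 of 10 members) and in Col-0 H3K9Ac with ethylene (15 of 21 against 7 of 10). The difference between members and partners was not tested.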

How the data were processed

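Peaks of H3K9Ac, H3K14Ac and H3K23Ac were taken from 10 lists, 1 per mark, genotype and treatment, assigned by their labels. The authors mapped single-end reads to TAIR10 with Bowtie2 2.1.0, removed duplicates with SAMtools, pooled replicates and called peaks with MACS2 2.1.0.20150603 (*P* threshold 0.01, fragment length 200 bp, effective genome size 130000000 bp). The deposited values are the pileup signal (coverage scaled to the control), the fold enrichment as a ratio, and −log10 of *P*. The deposited q column was treated as a score and used as it stands, since the file headers state that q was not calculated. Per-sample columns left unassigned numbered 0.

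Members and lists were chosen with earlier results of these data known. The named genes are the 10 members with every peak within 2 kb, partners with a summit in no list or all lists, and genes holding outside summits. Genes came from RefSeq TAIR10.1, whose nuclear chromosomes are those of TAIR10. Background was recovered from pileup and fold enrichment (median error of recomputed −log10 *P* at most 0.000843). At common control depth, pileup and background were scaled to 2438541 tags, and a peak was kept if its Poisson *P* did not exceed 0.01. The overlap code gave 0 mismatches over 6000 simulated intervals. Alternatives were thresholds on q (0.05), fold enrichment (2) and −log10 *P* (5), lists of equal length, other windows, and merging within 200 bp. The correction for the coverage ceiling was added after seeing the data. Computations used scipy 1.17.1, pandas 2.3.3 and numpy 2.4.6 under Python 3.11.15, and plots matplotlib 3.10.9.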

Additional observations from a re-analysis of the deposited data

How the results depend on the processing

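No paired analysis was possible because replicate libraries were pooled before peak calling, and leaving out a replicate was not possible for the same reason. Of the counts by list, the numbers of lists with a peak within 2 kb and the differences between treatments, 242 stayed within 1.5 times the value reported (or equal, for differences) and the others follow; the cause of each change was not tested beyond the fewer peaks that a setting leaves. Lists of equal length (3011 peaks each) moved members with a summit inside to 3 and 4 (Col-0 H3K9Ac, air and ethylene), 4 (Col-0 H3K14Ac ethylene), 3 (Col-0 H3K23Ac ethylene) and 2 (*ein2-5* H3K23Ac ethylene), members with a peak within 2 kb to 3, 5, 5 and 4 in these lists without Col-0 H3K14Ac ethylene, and peaks within 2 kb to 3, 5, 8, 5 and 4 in all of these, with 5 for *ein2-5* H3K14Ac ethylene and 7 for *ein2-5* H3K23Ac air. A −log10 *P* of at least 5 left 4, 2 and 3 members with a summit inside (Col-0 air H3K9Ac and H3K23Ac, and *ein2-5* H3K23Ac ethylene), 5, 3, 2 and 5 within 2 kb (Col-0 air H3K9Ac, H3K14Ac and H3K23Ac, and *ein2-5* H3K23Ac ethylene) and 6, 3, 2 and 5 peaks there, with 5 for *ein2-5* H3K14Ac ethylene. A fold enrichment of at least 2 left 4 members with a summit inside in the Col-0 and *ein2-5* H3K23Ac ethylene lists, 6 within 2 kb and 9 peaks in the former, and 7 peaks in *ein2-5* H3K23Ac air. For Col-0 H3K14Ac air, q under 0.05 left 3 members within 2 kb and 3 peaks, and the gene span alone and the window of 1 kb around the start left 3 members each. Shares of all genes with a summit inside fell under these settings too, to 10.6 to 10.9% at equal length, to 13.0, 4.31 and 13.2% in the 3 lists named for a −log10 *P* of at least 5, and to 21.3 and 26.4% in the 2 named for a fold enrichment of at least 2. Common control depth left 6 and 7 peaks in *ein2-5* air (H3K14Ac and H3K23Ac). The number of lists with a peak within 2 kb moved for *HAG2* to 3 (fold enrichment), 3 (−log10 *P*), 1 (equal length) and 2 (gene span alone), for *HAG3* to 6, *HAC1* to 3 and *HAM2* to 5 (equal length), for *HAC1* to 5 and *HAC12* to 6 (−log10 *P*), for *HAF1* to 0 with the gene span alone or the window around the start, and for *HAF2* to 0 by fold enrichment, −log10 *P*, common control depth, equal length and the window around the start. The number of lists with a summit inside moved at equal length to 6 for *HAG3*, 3 for *HAC1*, 4 for *HAC5*, 2 for *HAC12* and 5 for *HAM2*, for *HAG2* to 1 (q, common control depth) or 0 (fold enrichment, −log10 *P*, equal length), and for *HAF2* to 0 (fold enrichment, −log10 *P*, common control depth, equal length).

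The difference in members with a summit inside, ethylene minus air, was 0 for Col-0 H3K9Ac (3 by −log10 *P*, 1 at equal length) and 5 for Col-0 H3K14Ac (4 by fold enrichment, −log10 *P* or common control depth, 1 at equal length). For Col-0 H3K23Ac it was 3, against 5 by q or by −log10 *P*, 0 at common control depth, and the other direction by fold enrichment (-2) and at equal length (-1). For *ein2-5* H3K14Ac it was -1, and -2 by −log10 *P* and at equal length. For *ein2-5* H3K23Ac it was 1, with 2 at common control depth, and the other direction by q (-1), fold enrichment (-1), −log10 *P* (-3) and equal length (-3). The direction of the H3K23Ac counts between treatments therefore depends on the threshold in both genotypes. The Col-0 air lists had the shallowest IgG control, and the part that its depth has in the calls missing there was not tested.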
